A study of Sus scrofa with 8 samples.

Results

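Mitochondrial ribosomal proteins are the proteins of the ribosome inside mitochondria, and their nuclear genes carry symbols that begin with MRPL for the large subunit and MRPS for the small one. Of the 23235 genes in the deposited table, 66 had such a symbol followed by a number, 41 for the large subunit and 25 for the small subunit. A mean of at least 1 FPKM over the 8 libraries was reached by 64 of them, 40 of the large and 24 of the small subunit. FPKM is the fragment count scaled by transcript length and library size, so it can be compared between genes as far as the annotated lengths hold. Messenger RNA with a poly(A) tail was sequenced from the longissimus dorsi, a long muscle of the back, of crossbred Duroc x Landrace x Yorkshire piglets. From 12 weaned piglets aged 28 days, 6 had been assigned to each group, and 4 libraries per group were measured. Control piglets received 10 mL of sterile saline by gavage each morning for 23 days, and treated piglets received melatonin, the hormone of the pineal gland, at 5 mg per kg of body weight in the same volume. Both groups shared the breed, the basal diet and 5 days of adaptation. The labels give a group and a replicate number for each library, so p-values measure the spread between these libraries.

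The mitochondrial ribosome translates the few proteins encoded by mitochondrial DNA, all of them subunits of the respiratory chain or of ATP synthase. Its ribosomal RNAs come from mitochondrial DNA, while all of its proteins are made in the cytosol and imported. Some of these proteins have counterparts in bacterial ribosomes and others occur only in mitochondria. Muscle, which relies on oxidative phosphorylation for sustained work, is among the tissues affected when one of these genes is mutated. All 66 genes had a deposited GO term that names the mitochondrion, 65 a term that names the ribosome, and 59 a term for the mitochondrial ribosome or one of its subunits. Subunits are assigned here by symbol, and 3 symbols need a remark: MRPS18A and MRPS30 are proteins of the large subunit in mammals in spite of their S, and MRPS36 has also been assigned to the 2-oxoglutarate dehydrogenase complex. MRPL14 is named in the table by its description only and is therefore not a member by the rule. It measured 4.97 ± 1.16 FPKM in controls and 4.52 ± 0.797 after melatonin (SD, n = 4 each).

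Total counts lay between 53471667 and 60629098 per library, and the common biological coefficient of variation was 28.0%. Fold changes are log2 melatonin over control from edgeR, relative to TMM scaling, which sets the bulk of the genes equal between libraries. In bulk muscle, fewer cells of a type and less RNA per cell cannot be told apart.

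Members of the large subunit had the higher levels. Over the 8 libraries, the median FPKM was 11.6 for the 40 large subunit genes and 7.51 for the 24 small subunit genes, a ratio of 1.55. The highest member stood 42.0-fold above the lowest. In the large subunit, MRPL24, whose bacterial counterpart starts the folding of the large subunit RNA, led with a mean of 43.1 FPKM. Next came MRPL12, the stalk protein that recruits translation factors, at 40.2 FPKM and MRPL51, which bacteria lack, at 38.1 FPKM. At the bottom were MRPL19, at 2.19 FPKM, and MRPL36, the counterpart of the smallest bacterial ribosomal protein of that subunit, at 1.03 FPKM. In the small subunit, MRPS15, which binds the small subunit RNA, led at 30.7 FPKM. It was followed by MRPS36 at 19.1 FPKM and MRPS26, a protein found in mitochondria only, at 18.5 FPKM. The lowest were MRPS28 at 2.06 FPKM and MRPS14, which lies in the head of the small subunit, at 1.80 FPKM.

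The order of levels was kept between libraries. Spearman's rho over the 64 members lay between 0.93 and 0.98 for every pair of libraries, and was 0.99 between the control mean and the melatonin mean. These are descriptions over genes of the same libraries. Neighbours in the order were close to each other: MRPL12, from 29.8 to 51.3 FPKM over the libraries, overlapped with both MRPL24, from 29.7 to 53.5 FPKM, and MRPL51, from 31.3 to 49.1 FPKM. The summed FPKM of the large subunit was 2.33, 2.37, 2.36 and 2.61 times that of the small subunit in control replicates 1 to 4, and 2.34, 2.36, 2.19 and 2.48 times in melatonin replicates 1 to 4. These ratios overlapped between the groups. The median coefficient of variation among controls, on TMM-scaled counts, was 13.2% for members and 16.8% for all genes tested. These genes were not matched by level: the median was 9.26 FPKM for members and 4.20 FPKM for all genes tested. Among members the coefficient of variation ran from 3.36% for MRPL10, the base of the stalk, to 59.8% for MRPS6, a protein of the small subunit platform. MRPS6 measured 18.7, 4.93, 8.56 and 6.60 FPKM in controls and 11, 3.68, 17.97 and 5.56 FPKM after melatonin, so its high libraries fell in both groups (log2 fold change -0.16 ± 0.46).

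**Figure D1:**
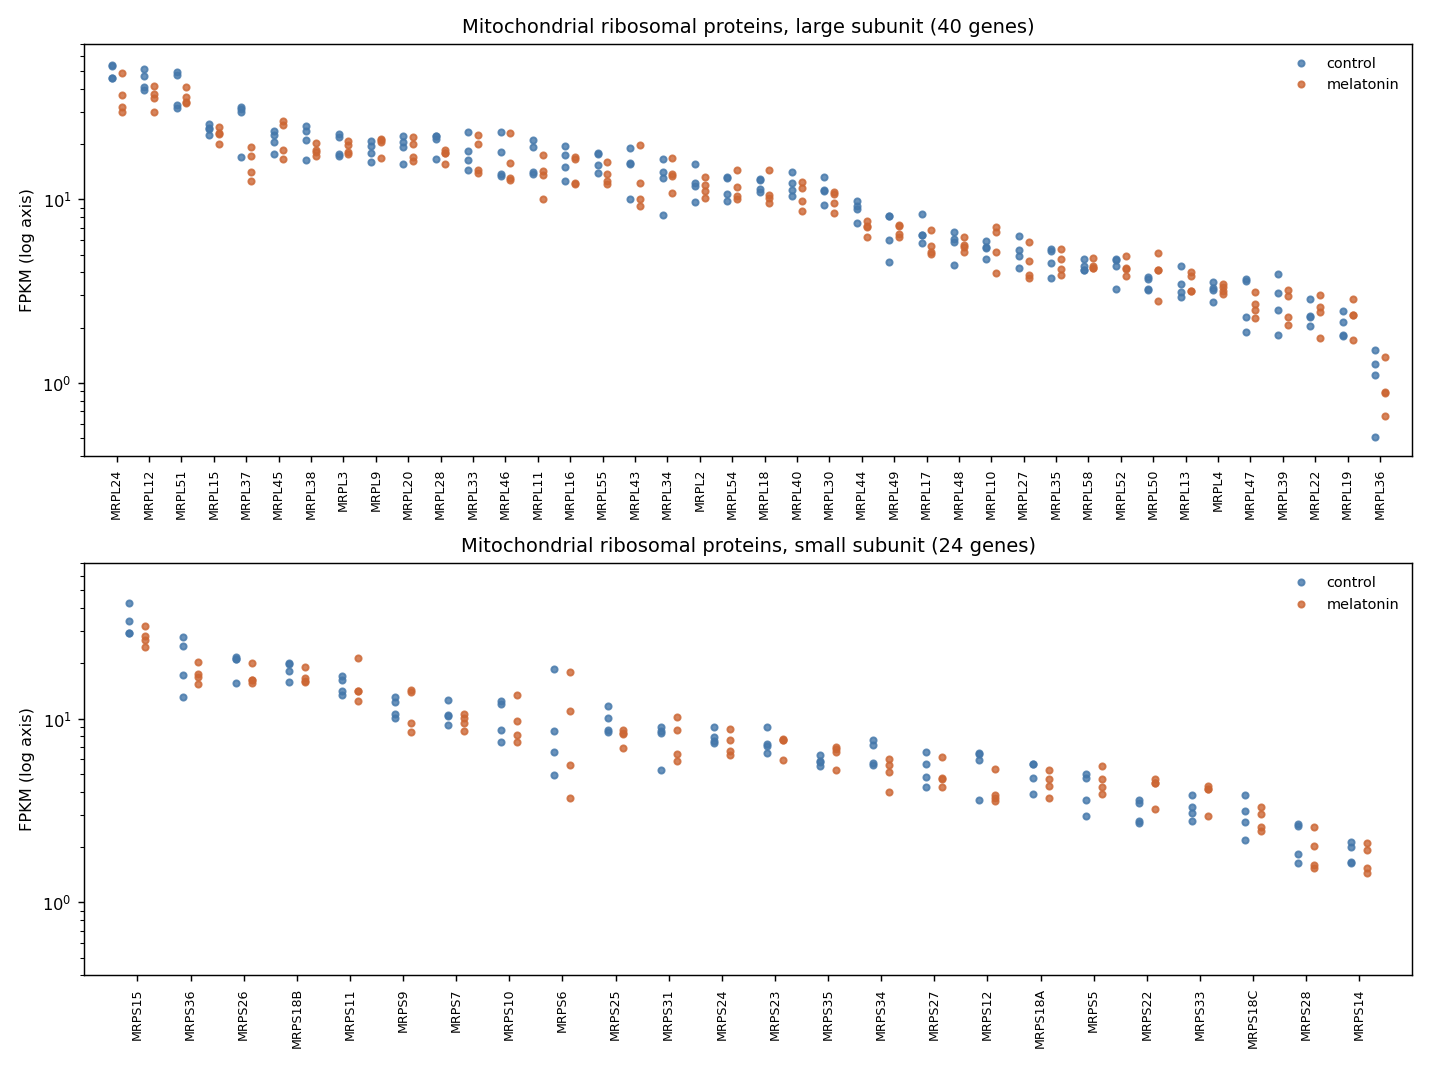
FPKM (log axis) of the 40 large subunit genes (upper panel) and 24 small subunit genes (lower panel), ordered by mean level, with a point for each control and each melatonin library. Levels ran from 43.1 for MRPL24 to 1.03 for MRPL36, and the points of both groups overlapped in every gene.

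The mitochondrial ribosomal proteins lay below control in most genes, by a small amount and without a call. After melatonin 56 of 64 members had a log2 fold change below 0, against 50.2% of all 9821 genes tested, and the members' median was -0.17 against 0.00 for all genes. The large subunit (36 of 40 lower, median -0.17) and the small subunit (20 of 24 lower, median -0.17) differed in their medians by 0.0032. With 1 library left out that difference ran from -0.011 to 0.066, and the large subunit's median was nearest to 0, at -0.099, without melatonin replicate 1. The small subunit's median ran from -0.25 to -0.15. At an unadjusted p under 0.05 in edgeR, 7 members were lower, while 3.84% of all genes were. By the same threshold 1 member was higher, while 6.67% of all genes were. The lower ones were MRPL24, MRPL37, MRPL44, MRPL55 and MRPL30 of the large subunit and MRPS25 and MRPS34 of the small subunit, and the higher one was MRPS22. No member passed at an adjusted p under 0.05 in edgeR, where 0% of all genes did (smallest adjusted p of a member = 0.440). DESeq2 called 0.662% of all genes and no member (smallest adjusted p = 0.0623, for MRPL24).

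The counts at an unadjusted p depended on single libraries. The 7 lower members, 10.9% of the 64, became 3 (4.69%) without melatonin replicate 1 or without melatonin replicate 3, where 3.21% and 1.95% of all genes were lower at that threshold. They became 4 (6.25%) without control replicate 2 or without control replicate 3, beside 2.99% and 3.21% of all genes. Without control replicate 4 they became 11 (17.2%), beside 4.64% of all genes, and without melatonin replicate 4 they became 13 (20.3%), beside 8.04%. Scaling by library totals alone put the median of all genes at 0.09 and that of the members at -0.09, a distance of -0.18 that compares with -0.17 under TMM. On that scale 45 of 64 members and 37.6% of all genes lay below 0, and 2 members (3.12%) were lower at an unadjusted p under 0.05, beside 1.72% of all genes.

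The distance between members and other genes was seen at high and at low levels. The 32 members above the median level of 9.26 FPKM had a median log2 fold change of -0.21, with 30 lower, while all genes in the same range of FPKM had a median of -0.08, with 62.4% lower. The 32 members at or below that level had a median of -0.14, with 26 lower, while all genes in their range had a median of 0.03, with 45.3% lower.

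**Figure D2:**
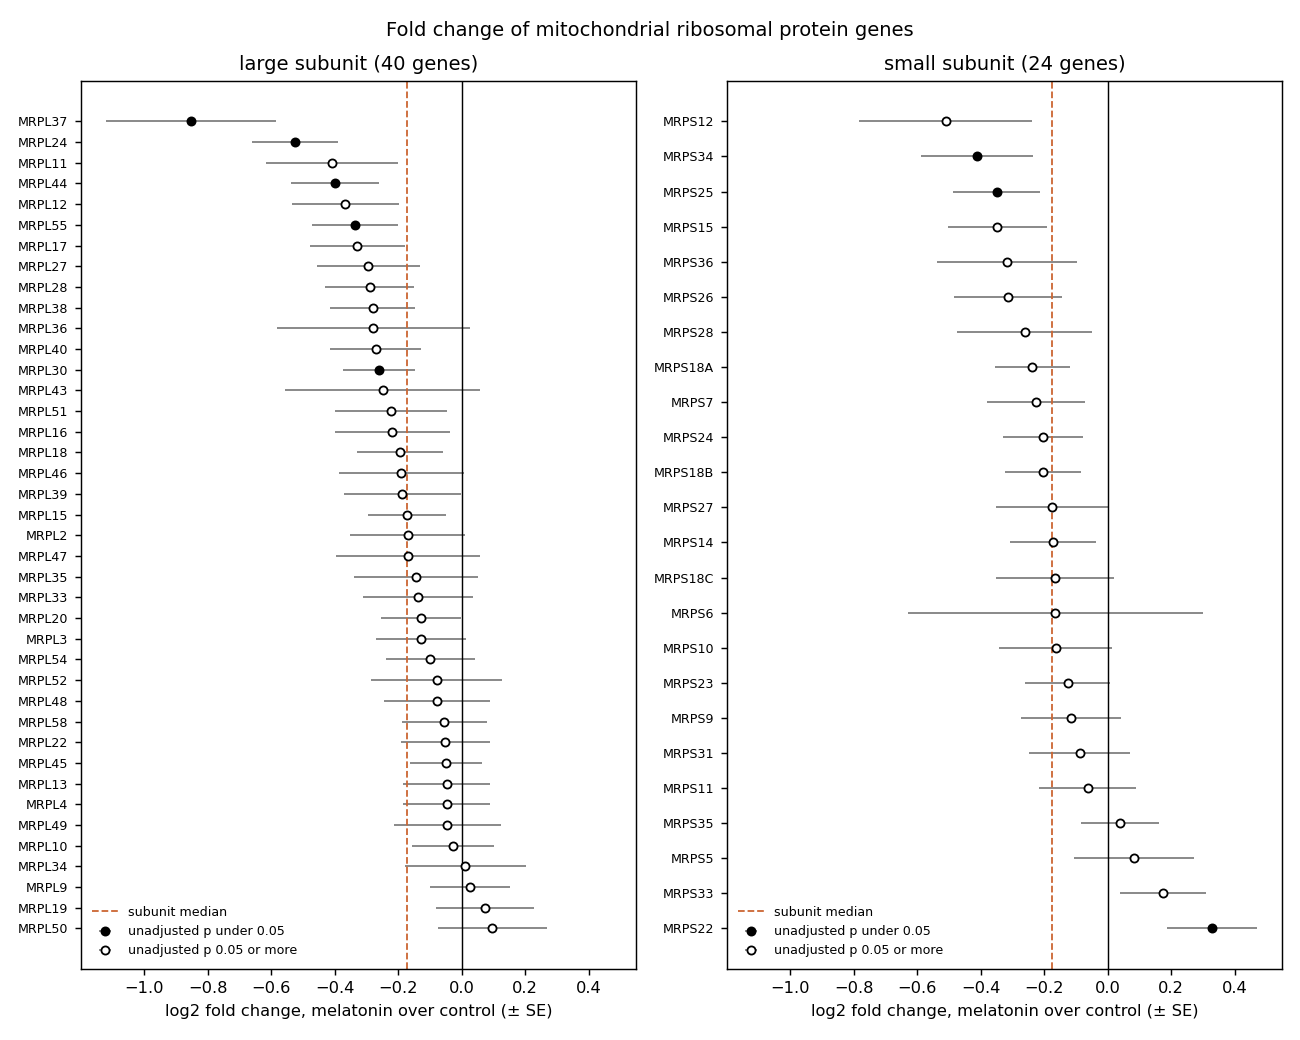
Log2 fold change, melatonin over control, with its SE for each of the 64 members, by subunit. Filled points have an unadjusted p under 0.05 in edgeR, the dashed line is the subunit median (-0.17 in both), and 36 of 40 large and 20 of 24 small subunit genes lie left of 0.

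MRPL24 had the smallest p among the members. The gene (ENSSSCG00000006469, chromosome 4, 93353111 to 93357796) measured 53.5, 45.7, 52.8 and 45.5 FPKM in control replicates 1 to 4 and 48.9, 29.7, 36.9 and 31.7 FPKM in melatonin replicates 1 to 4. Melatonin replicates 2, 3 and 4 lay below every control, while melatonin replicate 1 lay among them. Its log2 fold change was -0.52 ± 0.14 (edgeR adjusted p = 0.440). On TMM-scaled CPM (counts scaled to library size), the 4 controls, at 55.0, 56.1, 54.9 and 46.4, all lay above the 4 melatonin libraries, at 43.5, 33.5, 32.7 and 38.0.

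MRPL37, a protein of the large subunit that bacteria lack, had the largest fold change of the tested members. It (ENSSSCG00000032083, chromosome 6, 158090970 to 158143500) measured 31.7, 29.8, 16.9 and 30.9 FPKM in controls and 17.3, 14.1, 12.6 and 19.2 FPKM after melatonin. Control replicate 3 lay among the melatonin libraries, and the other three controls lay above all of them. The log2 fold change was -0.85 ± 0.27 (edgeR adjusted p = 0.440).

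MRPL44 carries a fold like that of ribonuclease III and its mutation causes cardiomyopathy. The gene (ENSSSCG00000016232, chromosome 15, 125732387 to 125740085) measured 9.78, 7.47, 8.87 and 9.16 FPKM in controls and 7.06, 6.26, 7.60 and 7.14 FPKM in treated piglets, with a fold change of -0.40 ± 0.14 (edgeR adjusted p = 0.441). Control replicate 2 overlapped with the melatonin libraries in FPKM, and the groups did not overlap after TMM scaling. MRPL55, found in mitochondria only, measured 15.4, 13.9, 17.9 and 17.5 FPKM in controls and 13.8, 12.0, 15.9 and 12.6 FPKM after melatonin (-0.34 ± 0.13). MRPL30, which has a bacterial counterpart, measured 13.3, 9.29, 11.05 and 11.3 FPKM in controls and 10.7, 9.51, 10.98 and 8.41 FPKM after melatonin (-0.26 ± 0.11). Both overlapped between the groups in FPKM and were separated after TMM scaling. MRPL30 shares its locus with MITD1 and another gene on the opposite strand, and whether the counting used strand is not given in the sources used here.

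Scale mattered for such separations. On FPKM the groups overlapped for each of the 64 members, whereas 1.07% of all genes had every melatonin library below every control and 1.13% had every one above. After TMM scaling 4 members (MRPL24, MRPL44, MRPL55 and MRPL30) had all melatonin libraries below all controls, beside 2.02% of all genes. MRPS22 alone among the members had all of them above, beside 2.25% of all genes. TMM factors were 1.18 and 1.19 in melatonin replicates 1 and 3, and from 0.851 to 1.02 in the other libraries.

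**Figure D3:**
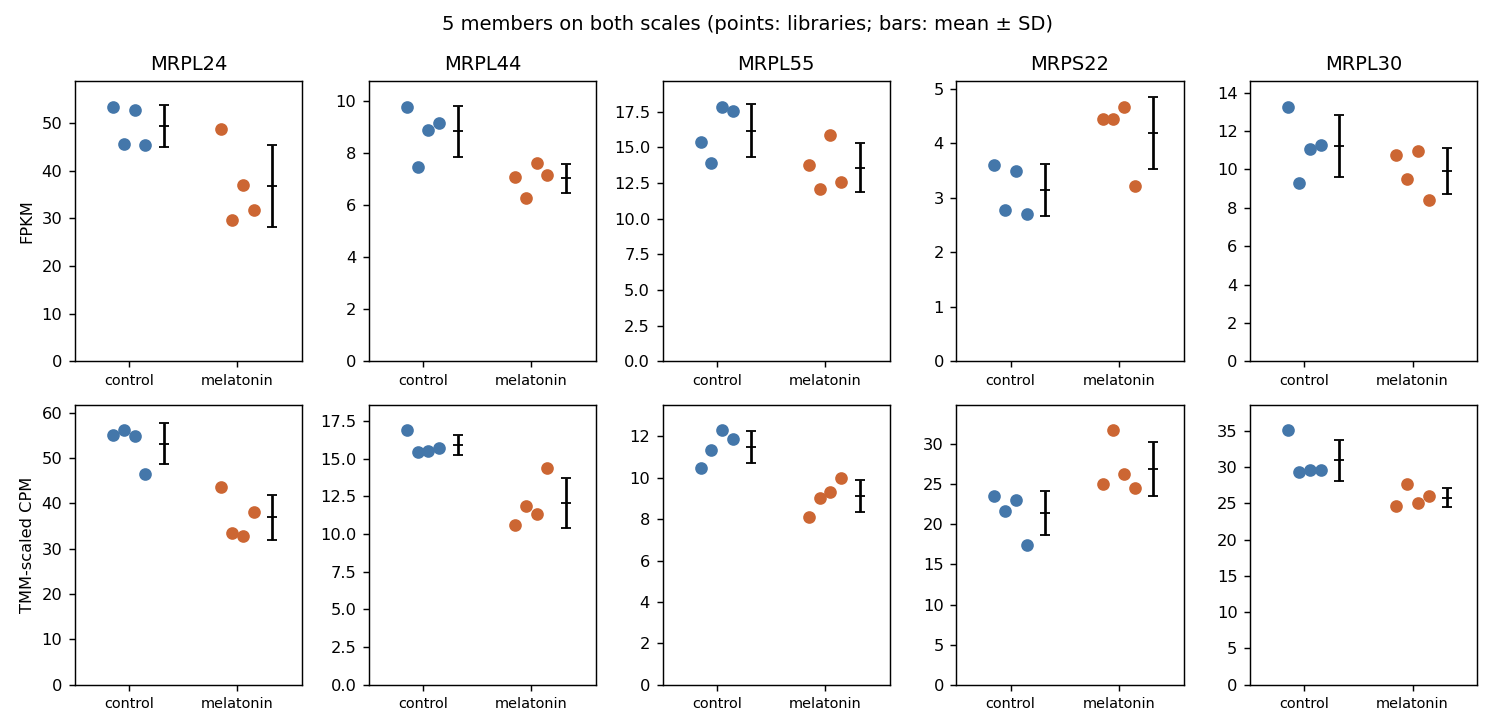
MRPL24, MRPL44, MRPL55, MRPS22 and MRPL30 on deposited FPKM (upper row) and on TMM-scaled CPM (lower row). Points are libraries, replicates 1 to 4 from left to right, and the bar is mean ± SD (n = 4). The groups overlap in each upper panel and in none of the lower ones.

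In the small subunit MRPS25, a mitochondria-specific protein (ENSSSCG00000034318, chromosome 13, 69441116 to 69463740), measured 11.7, 8.502, 10.02 and 8.67 FPKM in controls. After melatonin it measured 8.69, 8.26, 8.32 and 6.92 FPKM, with a fold change of -0.35 ± 0.14 (edgeR adjusted p = 0.453). Melatonin replicate 1 exceeded control replicates 2 and 4. MRPS34, which stabilises the small subunit RNA and is mutated in Leigh syndrome, measured 5.61, 5.71, 7.65 and 7.15 FPKM in controls and 6.03, 3.98, 5.10 and 5.57 FPKM after melatonin (-0.41 ± 0.18). Melatonin replicate 1 again lay within the controls. MRPS34 overlaps EME2, which lay at a mean of 1.96 FPKM, on the opposite strand.

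MRPS15, the highest of the small subunit, measured 42.3, 29.1, 34.1 and 29.1 FPKM in controls and 26.7, 24.4, 31.8 and 28.3 FPKM after melatonin (-0.35 ± 0.16, edgeR adjusted p = 0.475). Melatonin replicate 3 exceeded control replicates 2 and 4, so the groups overlapped. MRPS12, the protein of the decoding centre, measured 6.48, 5.94, 6.43 and 3.60 FPKM in controls and 3.69, 3.57, 3.83 and 5.29 FPKM after melatonin (-0.51 ± 0.27). Control replicate 4 was as low as the melatonin libraries, and melatonin replicate 4 stood above the other three. MRPS7, which contacts transfer RNA in the head of the small subunit, measured 10.7 ± 1.42 and 9.66 ± 0.874 FPKM (-0.22 ± 0.15).

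In FPKM a single library of MRPS26 stood apart in each group. Control replicate 1, at 15.6 FPKM, lay below the other controls, at 21.1 to 21.7 FPKM. Melatonin replicate 1, at 20.1 FPKM, lay above the other melatonin libraries, at 15.6 to 16.3 FPKM. On TMM-scaled CPM melatonin replicates 1 to 4 measured 18.9, 19.4, 15.2 and 19.8, so replicate 1 lay among the others. Control replicates 1 to 4 measured 16.9, 28.2, 23.3 and 22.7 on that scale. The log2 fold change of MRPS26 was -0.31 ± 0.17. MRPS36 varied most among controls of the 3 highest small subunit genes, at 27.9, 17.2, 24.8 and 13.1 FPKM, against 16.9, 17.5, 20.3 and 15.4 FPKM after melatonin (-0.32 ± 0.22).

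The 3 MRPS18 paralogs, which descend from a single bacterial protein, had different levels and fold changes on the same side of 0. MRPS18B was the highest, at 18.5 ± 1.95 FPKM in controls and 16.9 ± 1.52 after melatonin (-0.20 ± 0.12). MRPS18A measured 5.00 ± 0.855 and 4.48 ± 0.660 FPKM (-0.24 ± 0.12), and MRPS18C measured 2.97 ± 0.685 and 2.84 ± 0.389 FPKM (-0.17 ± 0.18). None of the 3 passed the adjusted test, and in FPKM their groups overlapped.

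The stalk, where translation factors bind, and the tunnel through which new protein leaves, gave 4 members of interest in the large subunit. MRPL12, which also binds the mitochondrial RNA polymerase, measured 51.3, 39.1, 46.6 and 40.7 FPKM in controls and 37.4, 29.8, 35.3 and 41.5 FPKM after melatonin (-0.37 ± 0.17, edgeR adjusted p = 0.484). Melatonin replicate 4 exceeded control replicates 2 and 4. MRPL10, its partner in the stalk, measured 5.40 ± 0.494 and 5.70 ± 1.42 FPKM. The fold change of MRPL10 was -0.03 ± 0.13, and the difference between the partners was not tested. MRPL45, at the tunnel exit where the ribosome meets the inner membrane, measured 21.0 ± 2.58 and 21.8 ± 5.02 FPKM (-0.05 ± 0.11). MRPL3, which lies near the peptidyl transferase centre and has been linked to cardiomyopathy, measured 19.8 ± 2.78 and 19.1 ± 1.46 FPKM (-0.13 ± 0.14). Directions of MRPL10 and MRPL45 turned on the scale: by library totals their log2 fold changes were 0.08 and 0.05. MRPL17, a conserved protein next to the exit, measured 6.42, 5.77, 6.42 and 8.29 FPKM in controls and 5.14, 5.05, 6.79 and 5.56 FPKM after melatonin (-0.33 ± 0.15, edgeR adjusted p = 0.478). Control replicate 4 was the highest library for MRPL17, and melatonin replicate 3 lay among the controls.

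A small set of 8 members had a log2 fold change above 0. MRPS22, a mitochondria-specific protein of the small subunit mutated in combined respiratory chain deficiency (ENSSSCG00000035771, chromosome 13, 80043821 to 80232773), measured 3.61, 2.78, 3.49 and 2.70 FPKM in controls and 4.44, 4.44, 4.68 and 3.21 FPKM after melatonin. Melatonin replicate 4 lay within the controls and the other three lay above them. The log2 fold change was 0.33 ± 0.14 (edgeR adjusted p = 0.466), and MRPS22 overlaps COPB2, a coat protein gene, on the opposite strand. For the others, values stayed within about an SE of 0 or little more: 0.17 ± 0.14 for MRPS33 and 0.10 ± 0.17 for MRPL50, both mitochondria-specific. MRPS5, at the entry of the messenger RNA, had 0.08 ± 0.19, and MRPL19 had 0.07 ± 0.15. MRPS35, MRPL9 and MRPL34 had 0.04 ± 0.12, 0.03 ± 0.12 and 0.01 ± 0.19. MRPS35, MRPL9, MRPL34 and MRPS5 turned below 0 under at least 1 alternative, as given in the closing section.

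Of 2 members under the minimum of 1 FPKM, MRPL57 had the lower level. MRPL57, a small protein found in mitochondria only (ENSSSCG00000031280, chromosome 11, 1321085 to 1321828), measured 1.06, 0.971, 0.910 and 0.702 FPKM in controls and 0.338, 0.346, 0.284 and 0.279 FPKM after melatonin. Every control lay above every melatonin library, as in 0.839% of all genes with a count, and the control mean was 2.92 times the melatonin mean. These values rest on 38, 38, 33 and 28 counts in controls and 13, 14, 11 and 12 counts after melatonin. In the fit without a filter, given in the closing section, 2.71% of all genes were lower at an unadjusted p under 0.05. MRPL57 was among them (edgeR unadjusted p = 0.0168, adjusted p = 0.526). MRPS30, just outside the minimum at a mean of 0.891 FPKM, measured 0.848 ± 0.125 and 0.934 ± 0.159 FPKM. MRPL36, just inside it, measured 1.27, 0.511, 1.099 and 1.51 FPKM in controls and 0.878, 0.893, 1.38 and 0.660 FPKM after melatonin (-0.28 ± 0.30), and its groups overlapped.

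Averaged over the 64 members, the libraries formed no clean separation. Relative to the control mean, the mean deviation on the log2 scale of TMM-scaled counts was 0.11, -0.01, 0.04 and -0.13 in control replicates 1 to 4. In melatonin replicates 1 to 4 it was -0.30, -0.16, -0.17 and -0.08. Control replicate 4 lay below melatonin replicate 4, and melatonin replicate 1 was the lowest library, with 57 of 64 members below the control mean. In control replicate 4, 46 of 64 members lay below it, as many as in melatonin replicate 2. For the large subunit alone the group means ± SD were 0.00 ± 0.07 in controls and -0.19 ± 0.10 after melatonin, and for the small subunit 0.00 ± 0.15 and -0.16 ± 0.08 (n = 4 each). Among the small subunit genes control replicate 4, at -0.21, was lower than all melatonin libraries except replicate 1, at -0.27.

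Nuclear genes of the respiratory chain and of ATP synthase, listed together as respiratory chain subunits, followed the same order of libraries at the extremes. Their mean deviation was 0.32, -0.03, 0.16 and -0.45 in controls and -0.54, -0.20, -0.41 and -0.24 after melatonin, so control replicate 1 was the highest and melatonin replicate 1 the lowest in both sets. Control replicate 4 was the second lowest for the respiratory chain. Cytosolic ribosomal proteins, which build the ribosome outside mitochondria, showed 0.07, 0.00, 0.06 and -0.13 in controls and 0.15, 0.04, -0.06 and -0.14 after melatonin. For them melatonin replicate 1 was the highest library.

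**Figure D4:**
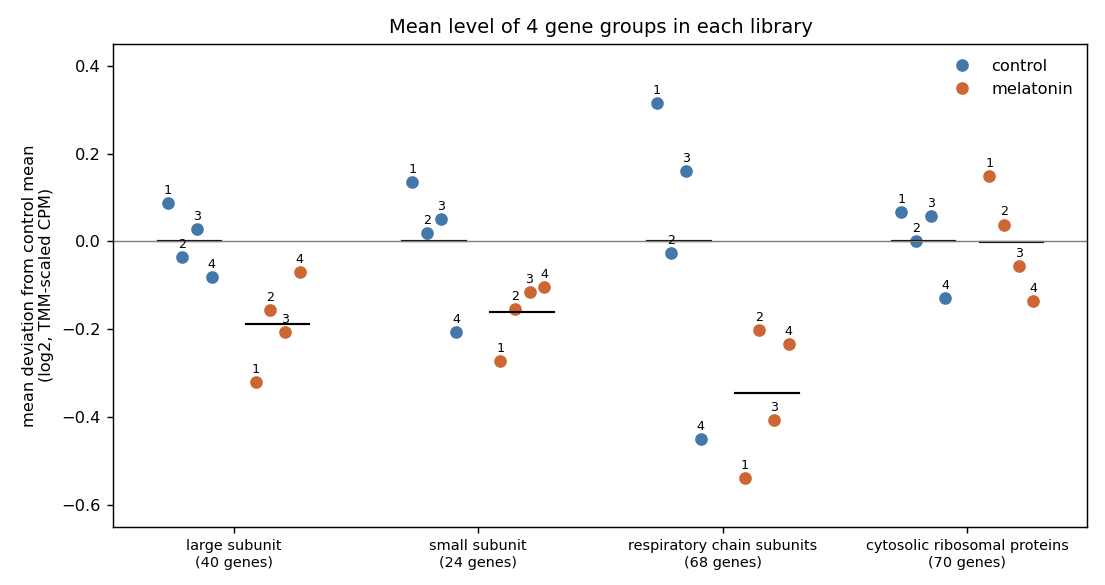
Mean log2 deviation from the control mean, on TMM-scaled CPM, for the large subunit, the small subunit, respiratory chain subunits and cytosolic ribosomal proteins. Points are libraries with their replicate number and bars are group means. Melatonin replicate 1 is the lowest point for both subunits and the respiratory chain and the highest for cytosolic ribosomal proteins.

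Markers of fibre types and of other cells also differed between libraries. Of slow fibre markers 10 of 10 lay lower after melatonin (median log2 fold change -0.61), with a summed level of 2390 to 11168 FPKM in controls and 781 to 6808 after melatonin. None of them was at an unadjusted p under 0.05 in edgeR. Their mean log2 deviation from the control mean was 1.09, -0.74, 0.21 and -0.56 in control replicates 1 to 4. In melatonin replicates 1 to 4 it was -0.16, -2.58, 0.11 and -0.33, so melatonin replicate 2 was the lowest. Of fast fibre markers 8 of 10 lay lower (-0.15), with sums of 46328 to 54456 and 39111 to 52327 FPKM. Fibroblast markers lay higher in 9 of 10 (1.41), with sums of 788 to 1467 and 995 to 11760 FPKM, and tendon markers in 6 of 6 (4.68), with sums of 16.2 to 32.3 and 21.4 to 987 FPKM. At an unadjusted p under 0.05 in edgeR, 7 fibroblast and 6 tendon markers were higher, beside 6.67% of all genes. DESeq2 called 3 tendon markers and 0 fibroblast markers at an adjusted p under 0.05, beside 0.662% of all genes. Adipocyte markers lay higher in 7 of 8 (1.03; 46.2 to 172 and 34.8 to 284 FPKM) and macrophage markers in 5 of 6 (0.39; 20.4 to 51.2 and 17.6 to 74.1 FPKM). Endothelial markers lay lower in 7 of 8 (-0.07; 48.8 to 77.9 and 54.8 to 71.5 FPKM) and satellite cell markers in 2 of 3 (-0.45; 17.3 to 36.4 and 14.4 to 25.6 FPKM). Schwann cell markers lay higher in 2 of 3 (0.09; 18.9 to 32.4 and 21.2 to 34.9 FPKM). In each of these lists the summed levels of the groups overlapped. Fibroblast and tendon markers were high in melatonin replicates 1 and 3: the mean log2 deviation from the control mean of the tendon list was 6.36 and 4.63 there and 0.54 and -0.48 in melatonin replicates 2 and 4, and that of the fibroblast list was 2.42 and 1.14 against 0.13 and 0.05. None of the markers was at 0 in all libraries. Without these libraries together, 49 of 64 mitochondrial ribosomal proteins lay below 0 with a median of -0.14, beside 52.6% of all genes with a median of -0.02. In that fit 1 member (1.56%) was lower at an unadjusted p under 0.05, beside 2.02% of all genes. The part of fibre type and of other cells in the members' values was not tested.

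The rest of mitochondrial gene expression was read from lists. The 5 tested mitochondrial ribosomal proteins under other names, AURKAIP1, GADD45GIP1, DAP3, CHCHD1 and PTCD3, all lay below 0, with a median of -0.16 and none at an unadjusted p under 0.05. AURKAIP1, a small subunit protein, had 29.1 ± 2.69 FPKM in controls and 24.7 ± 3.42 in treated piglets (-0.31 ± 0.15). GADD45GIP1, a large subunit protein, had 5.23 ± 0.901 and 4.25 ± 1.22 FPKM (-0.35 ± 0.27). Of 22 assembly factors 15 lay lower (median -0.06), 1 of them at an unadjusted p under 0.05. That was MPV17L2, which binds the large subunit, at 6.98 ± 1.61 and 5.31 ± 0.930 FPKM (-0.46 ± 0.19).

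Of 18 translation factors 13 lay lower (median -0.19), 3 of them at an unadjusted p under 0.05, among them the initiation factors MTIF3 (-0.38 ± 0.15) and MTIF2 (-0.39 ± 0.16). Of 18 genes listed as aminoacyl-tRNA synthetases of mitochondria 14 lay lower (median -0.10). That list also holds amidotransferase subunits, which are not synthetases. FARS2, which charges tRNA with phenylalanine, was at -0.47 ± 0.17 the one at an unadjusted p under 0.05. RARS2, the enzyme for arginine, lay on the other side at 0.48 ± 0.22. The 12 genes of mitochondrial transcription and RNA processing had a median of 0.04, with 5 lower and none at an unadjusted p under 0.05. Their lowest p were for ELAC2, which trims tRNA ends (-0.27 ± 0.18), and TFAM, which packages mitochondrial DNA (-0.17 ± 0.14). Of 10 listed regulators 7 were tested and 5 lay lower (median -0.32), and the coactivators PPARGC1B and PPARGC1A, which drive the making of mitochondria, had -0.96 ± 0.33 and -0.64 ± 0.25, both at an unadjusted p under 0.05. The other three, GABPB1, GABPB2 and NRF1, were under the minimum of 1 FPKM. In FPKM every melatonin library lay above every control for GABPB2 (0.192 to 0.564 in controls and 0.629 to 0.800 after melatonin) and for NRF1 (0.165 to 0.370 and 0.395 to 0.488), while GABPB1 overlapped. Of all genes tested 1.13% had every melatonin library above every control in FPKM. The share among genes under the minimum was not counted. GABPB2 and NRF1 were not tested, and their FPKM are not TMM-scaled.

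Respiratory chain subunits lay lower in 67 of 68 genes (median -0.39), 21 of them at an unadjusted p under 0.05, and NDUFS6 of complex I measured 77.5 ± 13.8 and 50.9 ± 2.58 FPKM (-0.68 ± 0.19). Cytosolic ribosomal proteins had a median of 0.00, with 34 of 70 lower and none at an unadjusted p under 0.05. No gene of these lists passed the adjusted test in edgeR. The mitochondrial ribosomal proteins thus lay between the respiratory chain subunits and the cytosolic ribosomal proteins in their median, and these distances between lists were not tested.

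**Figure D5:**
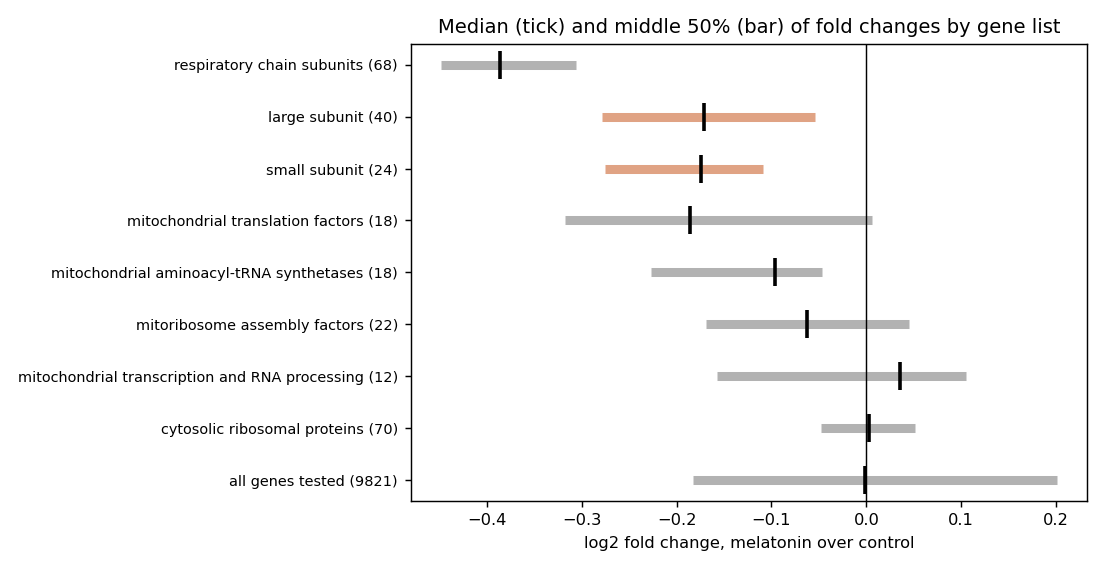
Median (tick) and middle 50% (bar) of the log2 fold changes, melatonin over control, for the 2 subunits, 6 other gene lists and all 9821 genes tested, with the number of genes in brackets. The medians run from -0.39 for respiratory chain subunits over -0.17 for both subunits and 0.00 for cytosolic ribosomal proteins and all genes to 0.04 for mitochondrial transcription and RNA processing.

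The members were scattered over 17 chromosomes of the Sscrofa11.1 build, with no more than 8 on any of them (chromosomes 12 and 3). A start next to another gene was frequent: 23 of 64 members (35.9%) had a gene on the opposite strand that starts within 1000 bases, while 16.9% of the 9498 protein-coding genes tested had one. Of these 16 were large and 7 small subunit genes. One such pair joined the 2 subunits: MRPL46 and MRPS11 start 351 bases apart on chromosome 1, with log2 fold changes of -0.19 ± 0.20 and -0.06 ± 0.15. MRPL46 measured 23.3, 13.8, 18.1 and 13.4 FPKM in controls and 15.7, 13.1, 22.9 and 12.7 FPKM after melatonin. MRPS11 measured 17.0, 13.4, 16.2 and 14.2 FPKM in controls and 14.1, 12.4, 21.3 and 14.2 FPKM after melatonin. Both genes had their highest melatonin value in replicate 3 and their highest control value in replicate 1.

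Of the 23 partner genes 6 had a deposited GO term that names the mitochondrion, MRPL46 and MRPS11 among them. MRPL47 (-0.17 ± 0.23) starts 114 bases from NDUFB5 of complex I (-0.36), and MRPL35 (-0.14 ± 0.19) starts 94 bases from IMMT, which shapes the cristae (-0.43). MRPS12 starts 241 bases from SARS2, the mitochondrial enzyme that charges tRNA with serine (-0.50), and MRPL43 (-0.25 ± 0.31) starts 307 bases from TWNK, the helicase of mitochondrial DNA (-0.03). The other partners had no such term: MRPL18 (-0.19 ± 0.14), for example, starts 109 bases from TCP1, a subunit of the cytosolic chaperonin (0.04). In 18 of 64 members (28.1%) the gene overlapped another on the opposite strand, while 19.1% of protein-coding genes did. Only MRPL28 and MRPL10 overlapped a gene on the same strand, 3.13% of members beside 5.69% of protein-coding genes, so their counts are less certain. Whether the counting used strand is not given, so counts of members that overlap on the opposite strand are uncertain too. Such partners lay below the member, as NCAPD2 (mean 3.02 FPKM) for MRPL51 (38.1), or above it, as FAU (121) for MRPL49 (6.72).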

How the data were processed

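The authors deposited a table with a count and an FPKM value per gene and library, per the file headers. The submitters' processing notes list FastQC, StringTie, DESeq2 and Sscrofa11.1 but give neither roles nor versions, and the aligner is not given in the sources used here. All value columns were mapped to libraries (0 left over), and no pair of libraries was a duplicate (smallest chi-square per degree of freedom 57.2 over 28 pairs). Symbols of 128 genes came from a gene name table.

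Counts of the 9821 genes with a mean FPKM of at least 1 were tested in edgeR 4.0.16 (R 4.3.3; legacy quasi-likelihood F test, TMM, no covariate), with Benjamini-Hochberg adjustment over all of them and a threshold of 0.05. SE is the fold change divided by the root of F. DESeq2 1.42.0 and limma 3.58.1 on log2(FPKM + 1) and log2(FPKM + 0.1) were alternatives. Tables and plots were made in Python 3.11.15 with pandas 2.3.3, SciPy 1.17.1 and Matplotlib 3.10.9.

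The members, lists and tests were chosen with earlier results of these data known. Members are named when they have one of the 10 smallest p, a fold change above 0, an extreme level or a listed place in the ribosome. MRPL18, MRPL35, MRPL43, MRPL46, MRPL47, MRPS11 and MRPS6 were added after their values were seen. Apart from neighbours of members, other lists give at most the 2 genes of smallest p, and cytosolic ribosomal proteins and cell type markers give none. Mitochondrial ribosomal proteins under other names and regulators under the minimum are also named. Promoter and protein sequences were not used here.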

Additional observations from a re-analysis of the deposited data

Results flagged for a closer look

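In 10 of 138 groups of 4 libraries, taken for single members and for subunit means, 1 library stood apart from the other three by the gap relative to the range (Dixon's test), while chance gives about 1 in 20. Melatonin replicate 4 was the library in 5 of them: MRPS33 at 2.94 FPKM (others 4.13 to 4.29), MRPL9 at 16.7 (20.6 to 21.4), MRPS12 at 5.29 (3.57 to 3.83), MRPS23 at 5.95 (7.60 to 7.74) and MRPS22 at 3.21 (4.44 to 4.68). This screen used FPKM, and the TMM factor of melatonin replicate 4 was 0.866. On TMM-scaled CPM melatonin replicate 4 lay among the others for MRPL9 (37.6; 34.3 to 44.3) and MRPS23 (18.2; 17.2 to 21.9). It was lowest, but close to the next library, for MRPS33 (18.4; 19.2 to 24.4) and MRPS22 (24.5; 25.1 to 31.7). For MRPS12 it stayed above the others (14.6; 7.59 to 9.30). MRPL58, which frees stalled peptides, stood apart in melatonin replicate 3 at 4.79 FPKM (4.21 to 4.31) and MRPS26 in melatonin replicate 1 at 20.1 FPKM (15.6 to 16.3). Among controls MRPS26 stood apart in replicate 1 at 15.6 FPKM (21.1 to 21.7), MRPL28 in replicate 2 at 16.5 FPKM (21.4 to 22.2) and MRPL37 in replicate 3 at 16.9 FPKM (29.8 to 31.7).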

How the results depend on the processing

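None of the members fitted passed the adjusted threshold in any of 19 alternative fits (smallest adjusted p 0.0623, DESeq2). Of 39 named members 29 kept their direction throughout. Genes called were 65 by DESeq2, and 0 to 15 with 1 library left out. Members lower at an unadjusted p under 0.05 were 7, 2 by library totals alone (an alternative chosen after seeing the data), 2 and 2 by limma with either pseudocount, 1 without melatonin replicates 1 and 3 together, and 3 to 13 with 1 library left out. Members higher were 1, and 0 to 1 with 1 library left out. They were 0 by limma with either pseudocount, without a filter, by upper-quartile scaling and without melatonin replicates 1 and 3 together. At a minimum of 5 FPKM they were also 0, but MRPS22, at a mean of 3.67 FPKM, was not tested there. The members' median was -0.072 by limma on log2(FPKM + 1), and the large subunit's was -0.072 and -0.064 by limma with pseudocounts of 0.1 and 1. Levels of the large and small subunit were 13.01 and 9.14 FPKM as means, and 15.4 and 9.78 at a minimum of 5 FPKM, which keeps only higher genes. Without a filter, MRPL57 had an estimate of -1.58 ± 0.57 on the log2 scale (in edgeR, adjusted p = 0.526).

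Signs turned by library totals, limma with 0.1 and limma with 1 for MRPL45 (0.054, 0.030, 0.030), MRPL10 (0.081, 0.047, 0.044) and MRPS11 (0.030, 0.0041, 0.0050). MRPL10 also turned at 5 FPKM (0.020), and MRPL34 without a filter (-0.0026). Without melatonin replicates 1 and 3 together MRPL3 turned to 0.024 and MRPL43 to 0.12. With 1 library left out, values on both sides of 0 ran from -0.11 to 0.13 for MRPL34, -0.056 to 0.075 for MRPL9, -0.57 to 0.34 for MRPS6, -0.079 to 0.047 for MRPL10, -0.17 to 0.028 for MRPS11, -0.029 to 0.078 for MRPS35 and -0.059 to 0.17 for MRPS5. Apart from the filters and smaller samples, the cause was not tested. Same-numbered libraries correlated at 0.18, 0.069, 0.17 and -0.027 in their deviations from the group means. Differently numbered libraries of the 2 groups correlated at -0.24 to 0.30. Whether the numbers pair the libraries cannot be told from these values, and the labels do not say. With the replicate block 0 genes were called, 6 members were lower at an unadjusted p under 0.05 and the median was -0.17.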
